A study of Homo sapiens with 9 samples.

Results

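The genes described here encode B cell surface antigens, costimulatory receptors and receptors for adhesion and homing: MS4A1 (CD20), CD38, CD24, CD40, CD27, CD83, CD44, CXCR4, CXCR5 and CCR7. They were chosen by symbol, as the rows of the count table whose Ensembl identifier maps to these 10 names, and 9 of the 10 had a row among 60234 gene rows. The choice was made with earlier results of these data known. No row mapped to CD24, which is not analysed here. CCR7 had too few reads for the test, so 8 genes were tested among 15847.

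RNA was sequenced from Ramos cells, a B cell line from an EBV-negative Burkitt lymphoma. The groups were untreated cells (0 h; replicates 1, 2 and 3) and cells kept in 3 µM CHIR99021, an inhibitor of the kinase GSK-3, for 3 h (replicates 5, 6 and 7) or 6 h (replicates 9, 10 and 11). The series describes biological triplicates. All groups were 1 cell line, and no untreated culture was sampled at 3 h or 6 h, so the drug and the time in culture cannot be told apart.

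B cells are placed and instructed through these proteins. CXCR4, CXCR5 and CCR7 are G protein-coupled receptors that guide cells towards CXCL12, towards CXCL13 in follicles, and towards CCL19 and CCL21 in the T cell zone. In the germinal centre, from which Burkitt lymphoma is thought to arise, dividing dark zone cells carry much CXCR4 and little CD83, and light zone cells, which meet T cells that engage CD40, carry the reverse. What follows concerns messenger RNA, not the receptors at the cell surface, and in bulk RNA fewer cells with a transcript and less transcript per cell cannot be told apart.

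Gene reads numbered from 46359911 in the shallowest library to 52880876 in the deepest. Levels are CPM, counts scaled to a common depth with TMM factors, given per library in replicate order or as mean ± SD (n = 3). Changes are log2 fold changes (a value of 1 is a doubling) with their standard error (SE), and a gene was called where the Benjamini-Hochberg adjusted p of edgeR's quasi-likelihood test over all 15847 genes was under 0.05. Untreated replicate 3 stood apart from replicates 1 and 2, with a chi-square per degree of freedom of 32.5 and 29.1 against 1.74 between those 2 and 2.65 to 13.3 among treated replicates. Without it, 6 of the 8 genes were still called at 3 h and 8 at 6 h. The cells carried the markers of the labelled type: 8 B cell markers other than those above summed to 2281 to 2326 CPM at 0 h, 2064 to 2196 CPM at 3 h and 2055 to 2210 CPM at 6 h. The 9 germinal centre markers went from 2286 to 2616 CPM at 0 h to 1867 to 1940 CPM at 3 h and 1809 to 1860 CPM at 6 h. The 7 plasma cell markers, led by JCHAIN, summed to 2868 to 2947, 3135 to 3266 and 3506 to 3739 CPM. The groups did not overlap in the plasma cell sum, but its members went both ways. At 6 h JCHAIN, XBP1, MZB1 and DERL3 were higher (log2 changes 0.56, 0.39, 0.28 and 0.71). IRF4 and PRDM1 were lower (-0.78 and -1.27), MZB1 was lower at 3 h (-0.25), and SDC1 was not tested. The part of the germinal centre and plasma cell lists in the changes below was not tested. Of 10 T or NK cell markers none was tested, CD3D, CD2, CD8A and CD8B had no read, and the sum was at most 0.34 CPM. The 8 myeloid markers summed to at most 0.323 CPM, with FCGR3A, S100A8 and S100A9 at 0, and the 8 epithelial or fibroblast markers to at most 0.0219 CPM.

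In untreated cells the genes spanned a wide range of levels. Per kilobase of exon, the order from high to low at 0 h was CXCR4 (254 ± 4.84 CPM per kb), CD27 (78.0 ± 6.25), CD38 (70.3 ± 0.944), MS4A1 (55.1 ± 1.25), CD40 (16.6 ± 0.929), CD83 (8.56 ± 0.125), CXCR5 (0.6 ± 0.0376), CD44 (0.237 ± 0.00457) and CCR7. No 2 neighbours in this order overlapped between libraries at 0 h, 3 h or 6 h. CXCR4 stood above 99.1% of tested genes on this scale, and CD44 above 11.8%. By 3 h MS4A1 had passed CD27 and CD38 to second place behind CXCR4, and CD83 had passed CD40. At 6 h CXCR4 was at 183 ± 6.09, MS4A1 at 107 ± 1.72, CD27 at 52.6 ± 3.36 and CD38 at 42.5 ± 0.735 CPM per kb.

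All 8 tested genes differed among the 3 times (edgeR F test, adjusted p of at most 2.36e-06), as did 77.7% of all genes. At 3 h, MS4A1 and CD83 were higher and CD38, CD40, CD27 and CD44 lower, which is 6 of 8 called against 66.3% of all genes (2 higher against 32.8%, 4 lower against 33.5%). At 6 h all 8 were called, against 70.8% of all genes. MS4A1 and CD83 were higher, against a background of 35.7%, and the other 6 lower, against 35.0%. Between 3 h and 6 h, 6 of 8 were called against 43.4%, with MS4A1 higher (background 21.5%) and CD38, CD40, CD83, CXCR4 and CXCR5 lower (background 21.9%). The libraries of the groups compared did not overlap for 7 of 8 genes at 3 h, 8 at 6 h and 6 between 3 h and 6 h, where the shares of all genes were 70.2%, 71.7% and 55.2%. The median log2 change of the 8 was -0.18 at 3 h and -0.65 at 6 h, against -0.01 and 0.02 over all genes. Their median size of change was 0.58 and 0.91, against 0.42 and 0.48. The background depends on the scaling: with library size alone, 21.9% of all genes were higher and 47.0% lower at 3 h, and 23.1% and 47.4% at 6 h, with a median log2 change of -0.22 at both times. The 8 genes then split 2 higher and 6 lower at 3 h and at 6 h.

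**Figure D1:**
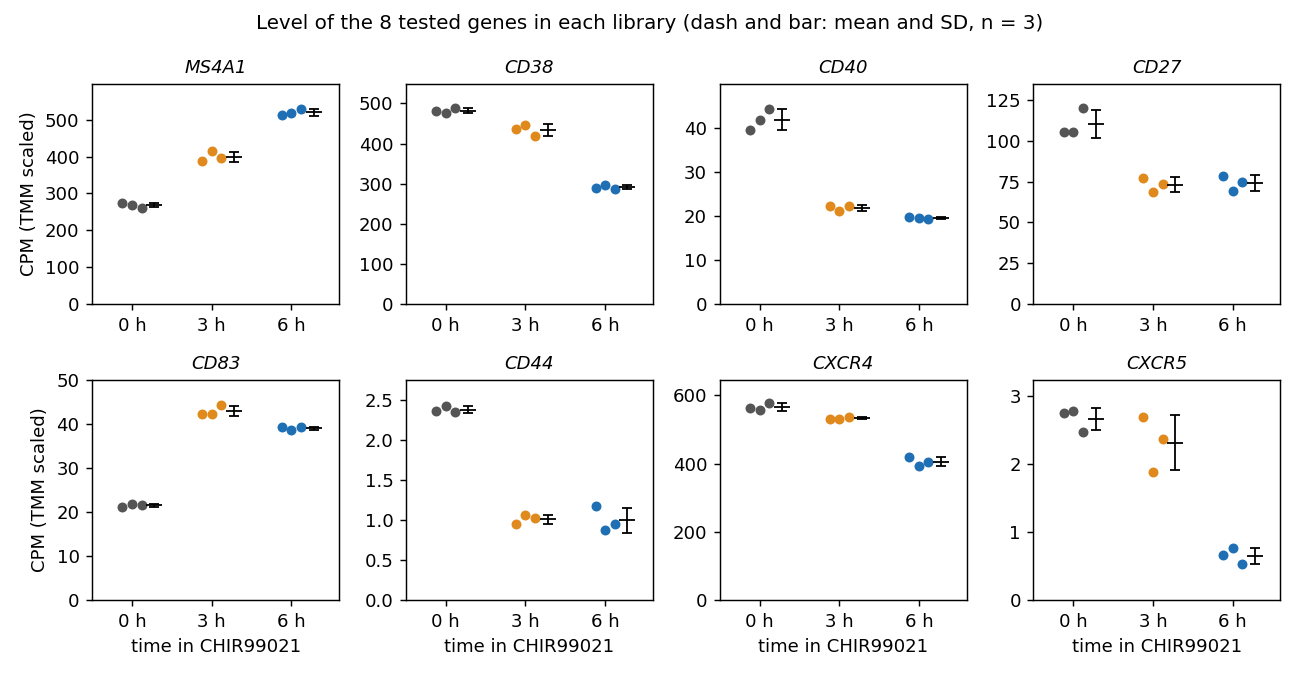
Level of the 8 tested genes in CPM (vertical axes, from 0, each on its own scale) at 0 h, 3 h and 6 h of CHIR99021. Points are libraries in replicate order, and the dash and bar beside them are the mean and SD of 3. MS4A1 climbs from 268 to 520 CPM, CXCR5 overlaps its 0 h libraries at 3 h and is at 0.652 CPM at 6 h, and CD40, CD27, CD44 and CD83 have made most of their move by 3 h.

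The surface antigens moved apart. MS4A1 encodes CD20, a membrane protein of mature B cells and the target of rituximab (ENSG00000156738, GRCh38 chromosome 11, 60455752 to 60470760, plus strand). It was at 273, 270 and 262 CPM in untreated libraries, at 388, 414 and 397 CPM at 3 h, and at 513, 517 and 530 CPM at 6 h. Each time stood clear of the one before it, with no overlap between libraries. The log2 change was 0.57 at 3 h (SE 0.045, adjusted p = 6.86e-08) and 0.95 at 6 h (SE 0.045, adjusted p = 3.59e-10), and with library size alone the 3 h value was 0.37 (adjusted p = 6.27e-06). MS4A1 also rose between 3 h and 6 h, by 0.38 (SE 0.045, adjusted p = 1.8e-05).

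CD38 encodes an ectoenzyme that consumes NAD and is abundant on germinal centre B cells and plasma cells (ENSG00000004468, chromosome 4, 15778275 to 15853230, plus strand). Its level was 480, 477 and 489 CPM at 0 h, 435, 447 and 418 CPM at 3 h, and 290, 297 and 287 CPM at 6 h. The small step at 3 h and the larger one at 6 h both left the libraries without overlap. CD38 fell by 0.15 on the log2 scale at 3 h (SE 0.044, adjusted p = 0.00726), a call that was lost without 3 h replicate 7 (adjusted p = 0.0634) and against a minimum fold of 1.2. The value was -0.31 with upper-quartile factors and -0.36 with library size alone. CD38 fell by 0.73 at 6 h (SE 0.045, adjusted p = 3.95e-09), of which 0.57 came after 3 h (SE 0.044, adjusted p = 4.15e-07).

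Among the costimulatory receptors, CD40 and CD27 fell and CD83 rose. CD40 is the TNF receptor family member through which helper T cells signal to B cells (ENSG00000101017, chromosome 20, 46118272 to 46129863, plus strand). It was at 39.5, 41.8 and 44.2 CPM at 0 h, at 22.2, 21.1 and 22.2 CPM at 3 h, and at 19.8, 19.6 and 19.3 CPM at 6 h. The treated libraries lay far below the untreated ones and close to each other. The log2 change was -0.94 at 3 h (SE 0.055, adjusted p = 3.96e-09) and -1.10 at 6 h (SE 0.056, adjusted p = 6.88e-10). The further step of -0.16 between 3 h and 6 h was near the threshold (adjusted p = 0.0393) and was lost in 10 of 18 other settings, where it ran from -0.19 to -0.14 with adjusted p from 0.0128 to 1.0. Leaving out untreated replicate 2, 3 h replicate 5 or 7, or any 6 h replicate was enough to lose it.

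CD27, another member of the TNF receptor family, binds CD70 and marks memory and germinal centre B cells (ENSG00000139193, chromosome 12, 6444867 to 6451718, plus strand). Its libraries read 105, 105 and 120 CPM at 0 h, 77.4, 68.5 and 73.6 CPM at 3 h, and 78.5, 69.1 and 74.8 CPM at 6 h. The 3 h and 6 h libraries covered the same range, below every untreated library, and the highest untreated value was that of replicate 3. CD27 fell by 0.59 at 3 h (SE 0.069, adjusted p = 3.95e-06) and by 0.57 at 6 h (SE 0.069, adjusted p = 4.64e-06), or by 0.52 and 0.51 without untreated replicate 3. The difference between 3 h and 6 h was 0.02, with a 95% interval of -0.13 to 0.17 (adjusted p = 0.848). Exons of CD27 overlap those of CD27-AS1 on the opposite strand (7.56, 5.48 and 6.40 CPM at the 3 times) and of TAPBPL on the same strand (8.47, 10.4 and 14.9 CPM). Since the strand setting of the counting is not given in the sources used here, reads shared by these genes cannot be told apart.

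CD83, an immunoglobulin family protein of activated and light zone B cells, protects MHC class II and CD86 from the ubiquitin ligase MARCHF1 (ENSG00000112149, chromosome 6, 14117256 to 14136918, plus strand). It was at 21.2, 21.8 and 21.7 CPM at 0 h, at 42.3, 42.2 and 44.3 CPM at 3 h, and at 39.2, 38.6 and 39.2 CPM at 6 h. Every treated library was well above every untreated one, and the 6 h libraries were a little under the 3 h ones. The log2 change was 1.0 at 3 h (SE 0.048, adjusted p = 5.87e-10) and 0.86 at 6 h (SE 0.048, adjusted p = 1.76e-09). The step of -0.14 between 3 h and 6 h (adjusted p = 0.0294) was lost in 6 of 18 other settings (adjusted p from 0.00747 to 1.0 over all of them), among them those without 3 h replicate 7 or any single 6 h replicate.

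RefSeq promoter windows (GRCh38.p14; 250 bases before a transcript start) matched 6 of the 9 genes, with 9 windows. They were searched on both strands for CACGTG (the E-box of MYC), CTTTGA (the core of TCF/LEF sites), GTAAACA (FOXO), ATTTGCAT (the octamer) and the 10-base NF-kappaB consensus, which 6.34%, 11.2%, 2.98%, 1.63% and 9.96% of all 35116 windows hold. The only matches in these 9 windows were to the NF-kappaB consensus, before the downstream start of CD83, a gene known as a target of NF-kappaB. They fell in 3 separate stretches, and 0.0626% of all windows hold at least 3. The cutoff of 3 is the number found in this CD83 window, picked from the 9 after the search, so that share is not a test. The stretches are shown because they held the only matches. Matching bases are in capitals, 5′ to 3′ on the plus strand, with overlapping matches joined. Any part of them in the change of CD83 was not tested. All 3 stretches lie within the GENCODE bounds of CD83, which begins further upstream, at 14117256.

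CD83 stretch at chr6:14117631-14117654, matching from 134 to 125 bases before the start: ggggacgGGGGCGCCCCggcctaa

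CD83 stretch at chr6:14117690-14117713, matching from 76 to 65 bases before the start: cccgccGGGGAATCCCCCgggctg

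CD83 stretch at chr6:14117715-14117738, matching from 51 to 41 bases before the start: cgcgcaGGGAAGTTCCCgaacgcg

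A match is only a description of the letters, and binding was not measured.

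CD44, the adhesion receptor for hyaluronan, was scarce and fell early (ENSG00000026508, chromosome 11, 35138870 to 35232402, plus strand). Its 132, 141 and 126 reads at 0 h made 2.36, 2.42 and 2.34 CPM, its 44, 54 and 50 reads at 3 h made 0.944, 1.06 and 1.02 CPM, and its 55, 40 and 41 reads at 6 h made 1.17, 0.876 and 0.946 CPM. All treated libraries lay below all untreated ones, and the 3 h and 6 h libraries overlapped. The log2 change was -1.23 at 3 h (SE 0.14, adjusted p = 2.07e-06) and -1.25 at 6 h (SE 0.14, adjusted p = 1.79e-06). Between 3 h and 6 h the difference was -0.01, with a 95% interval of -0.35 to 0.33 (adjusted p = 0.958). Counts were per gene, so the splice variants of CD44 are summed.

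Of the chemokine receptors, CXCR4 and CXCR5 were called lower at 6 h and not at 3 h, and CCR7 could not be tested. CXCR4, the receptor for CXCL12 (ENSG00000121966, chromosome 2, 136114349 to 136118165, minus strand), was at 562, 557 and 578 CPM at 0 h, at 532, 530 and 537 CPM at 3 h, and at 420, 393 and 405 CPM at 6 h. The 3 h libraries sat just under the untreated ones, and the 6 h libraries were clearly lower. At 3 h the log2 change was -0.09 (SE 0.044, 95% interval -0.18 to 0.01), and it was not called (adjusted p = 0.103). It was called with upper-quartile factors (-0.24, adjusted p = 0.000164), with library size alone (-0.29, adjusted p = 1.83e-05) and with a filter of 1 CPM in 3 libraries (-0.13, adjusted p = 0.00952). The first 2 of these scalings move the median of all genes at 3 h to -0.17 and -0.22. CXCR4 fell by 0.48 at 6 h (SE 0.044, adjusted p = 2.85e-07), of which 0.39 came after 3 h (SE 0.044, adjusted p = 1.12e-05).

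CXCR5, the receptor for CXCL13 that brings B cells into follicles, had the largest change of the 8 genes (ENSG00000160683, chromosome 11, 118883766 to 118897799, plus strand). It had 153, 161 and 133 reads at 0 h (2.74, 2.77 and 2.47 CPM), 125, 96 and 116 reads at 3 h (2.68, 1.88 and 2.37 CPM), and 31, 35 and 23 reads at 6 h (0.659, 0.766 and 0.531 CPM). The 3 h libraries overlapped the untreated ones, and the 6 h libraries lay below all others. The change at 3 h was -0.21 (SE 0.14, 95% interval -0.51 to 0.09, adjusted p = 0.209), although it was called with upper-quartile factors (-0.36, adjusted p = 0.0376) and library size alone (-0.41, adjusted p = 0.0209). It was -0.32 without 3 h replicate 5 (adjusted p = 0.0849) and -0.08 without 3 h replicate 6 (adjusted p = 0.655). CXCR5 fell by 2.02 at 6 h (SE 0.17, 4.06-fold, adjusted p = 1.42e-07), of which 1.81 came after 3 h (SE 0.18, adjusted p = 3.98e-06). Only 0.366% of tested genes had a lower log2 change between 3 h and 6 h. Exons of CXCR5 overlap those of BCL9L on the opposite strand, which was at 8.29, 3.11 and 4.58 CPM at the 3 times. As for CD27, the strand setting is not given, so reads shared by CXCR5 and BCL9L cannot be told apart.

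CCR7, the receptor that leads B cells to the T cell zone, had 0, 1 and 0 reads at 0 h, 1, 0 and 2 reads at 3 h, and 1, 2 and 1 reads at 6 h. Every library was under the 0.0567 to 0.0647 CPM that a count of 0 allows (3 reads of the library, for counting error only), and no change was detectable at this depth.

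**Figure D2:**
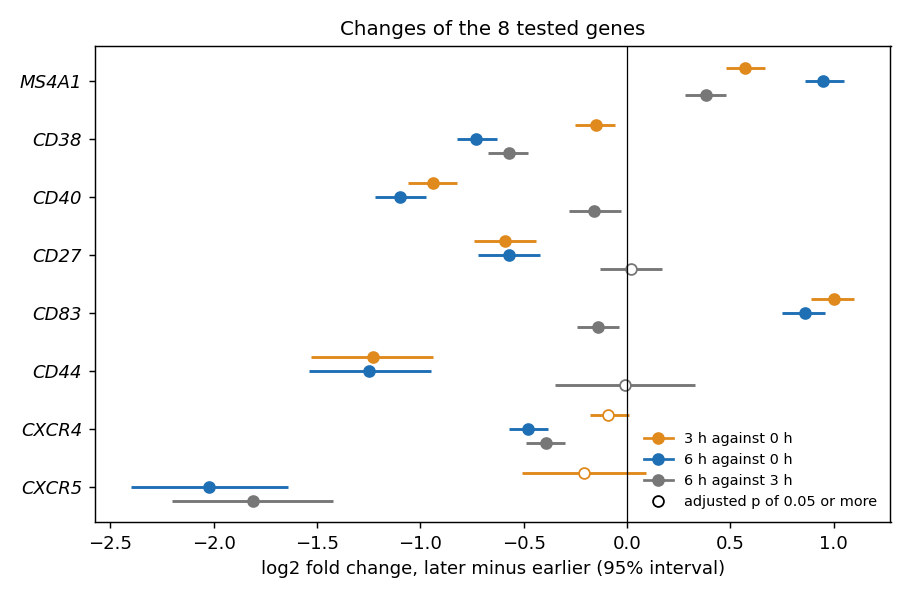
Log2 fold change of each tested gene (horizontal axis) with its 95% interval in the 3 comparisons, later minus earlier time; filled points passed the adjusted p threshold of 0.05 and open points did not. At 3 h the points of CXCR4 (-0.09) and CXCR5 (-0.21) are open, and at 6 h all 8 are filled.

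The change in the second 3 h was then compared with that in the first 3 h for each gene, a contrast added after seeing the data, in which the 3 h libraries enter both steps. The steps differed for 7 of the 8 genes, against 47.5% of all genes. For CD40, CD27 and CD44, which fell in the first step, the second change minus the first was 0.78 (SE 0.098, adjusted p = 1.72e-05), 0.61 (SE 0.12, adjusted p = 0.00088) and 1.22 (SE 0.26, adjusted p = 0.00144) on the log2 scale. For CXCR5 and CD38 the second change was the more negative, with differences of -1.61 (SE 0.27, adjusted p = 0.000251) and -0.42 (SE 0.076, adjusted p = 0.000406). The difference for CD38 was -0.25 with library size alone (adjusted p = 0.0146). CD83 gained 1.0 in the first step and lost 0.14 in the second (difference -1.13, SE 0.081, adjusted p = 8.76e-08).

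For CXCR4 the difference of -0.31 (SE 0.076, adjusted p = 0.00415) was not called with upper-quartile factors (-0.15, adjusted p = 0.0926), with library size alone (-0.14, adjusted p = 0.0874) or against a minimum fold of 1.2 (adjusted p = 0.233). For MS4A1 it was -0.20 (SE 0.078, 95% interval -0.36 to -0.03, adjusted p = 0.0534), and it was called without untreated replicate 3 (adjusted p = 0.0435), with limma-voom (0.0488) and with DESeq2 (0.0456). With upper-quartile factors it was -0.04 (adjusted p = 0.701) and with library size alone -0.03 (adjusted p = 0.785). At 3 h, MS4A1 had made 60.2% of its log2 change at 6 h, CD40 85.7%, CD27 103%, CD44 98.9% and CD83 116%. CD38 had made 21.1%, CXCR4 17.9% and CXCR5 10.2%. With library size alone these last shares were 36.9%, 40.3% and 18.1%.

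**Figure D3:**
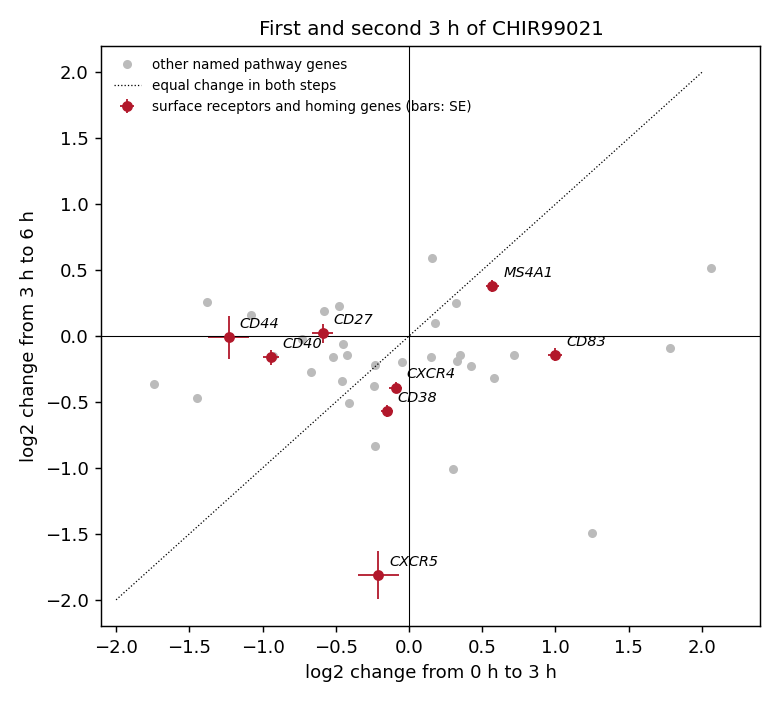
Log2 change from 0 h to 3 h (horizontal axis) against that from 3 h to 6 h (vertical axis), with SE bars for the 8 tested genes in red and the other named genes in grey; the dotted line marks equal change in both steps. CD44, CD27 and CD40 lie left of 0 near the horizontal line, and CXCR5 lies far below it at -1.81; the axes share the 3 h libraries, so their errors are not independent.

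Ratios of reads within a library do not depend on how libraries are scaled. Sorting of germinal centre cells uses CD83 and CXCR4 together, and there were 0.0377, 0.0391 and 0.0375 CD83 reads per CXCR4 read at 0 h, 0.0795, 0.0796 and 0.0825 at 3 h, and 0.0935, 0.0982 and 0.0969 at 6 h. The ratio was higher at each later time in every library, 2.12-fold at 3 h and 2.53-fold at 6 h. MS4A1 reads per CD38 read went from 0.569, 0.567 and 0.534 at 0 h to 0.891, 0.927 and 0.949 at 3 h and 1.77, 1.74 and 1.85 at 6 h. MS4A1 thus had fewer reads than CD38 in each library until 3 h and more at 6 h. Reads are not scaled to exon length, and per kilobase MS4A1 was already above CD38 at 3 h (82.1 against 63.2 CPM per kb). CD83 reads per CD40 read were 0.515 ± 0.0233, 1.97 ± 0.0483 and 1.99 ± 0.0350 at the 3 times. CXCR4 reads per CXCR5 read were 214 ± 18, 236 ± 42.5 and 638 ± 125. The first 2 ratios were without overlap in all 3 comparisons, where the exact two-sided permutation test gave p = 0.1, the smallest that 3 against 3 allows (0.12 after adjustment over the 12 comparisons of 4 ratios). These ratios were chosen after the levels were seen.

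**Figure D4:**
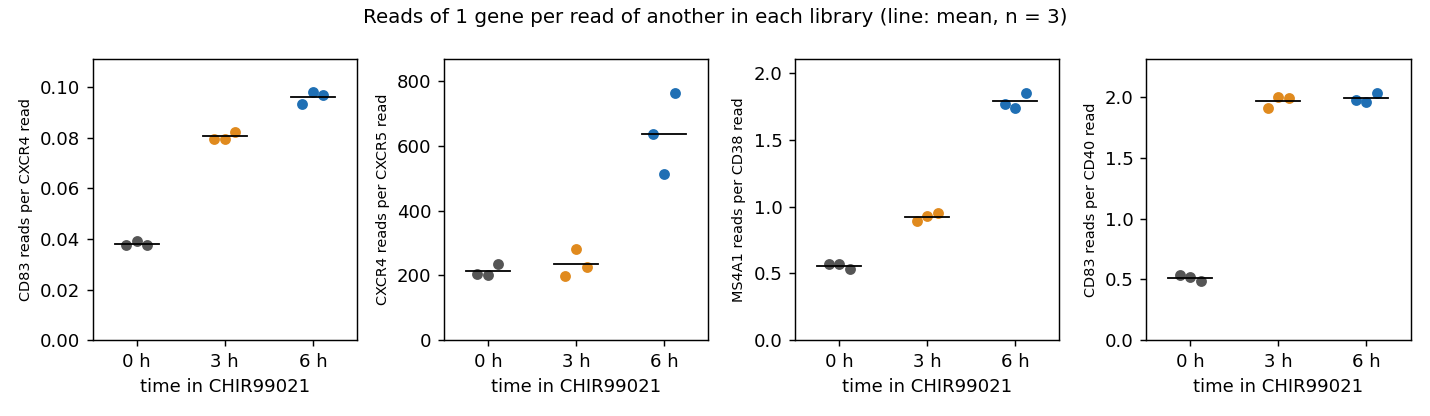
Reads of 1 gene per read of another, not scaled to exon length, in each library (vertical axes, from 0) at 0 h, 3 h and 6 h. Points are libraries and lines the means of 3. MS4A1 per CD38 read passes 1 between 3 h and 6 h, and CXCR4 reads per CXCR5 read overlap between 0 h and 3 h and are higher in all 6 h libraries.

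Lists of related genes were also chosen with earlier results of these data known, so their shares beside all genes are descriptions, not tests. Among other B cell surface proteins and co-receptors more fell than rose. Of 25 tested of 27 listed, 6 rose and 15 fell at 3 h, and 6 rose and 17 fell at 6 h, with median log2 changes of -0.23 and -0.59. Over all genes, 32.8% were higher and 33.5% lower at 3 h and 35.7% and 35.0% at 6 h, with medians of -0.01 and 0.02, and the list had 24% and 60%, then 24% and 68%. With library size alone the split at 3 h was 3 and 17, where 21.9% of all genes were higher and 47.0% lower. CD22, an inhibitory co-receptor, went from 763 to 533 and 476 CPM (log2 change -0.52 at 3 h and -0.68 at 6 h). The complement receptor CR2 (CD21) fell by 1.08 and 0.92, and CD72, an inhibitory lectin, by 0.67 and 0.94. CD79A, a signalling chain of the B cell receptor, rose by 0.32 and 0.56, although its call at 3 h was lost with upper-quartile factors (adjusted p = 0.0668) and library size alone (adjusted p = 0.161). CD79B, its partner, rose by 0.33 at 3 h (adjusted p = 0.000808) and was at 0.14 at 6 h (adjusted p = 0.0851; -0.10 with library size alone). FCER2, the low-affinity IgE receptor CD23, rose by 2.06 and 2.58 from a low 0.203 ± 0.0303 CPM to 1.22 ± 0.141 CPM at 6 h.

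Ligands, relatives and adaptors of CD40 and CD27 numbered 22 tested of 23, with 7 higher and 13 lower at 3 h and 4 higher and 14 lower at 6 h (medians -0.41 and -0.51, all genes -0.01 and 0.02). In all, 90.9% of the list was called at 3 h and 81.8% at 6 h, beside 66.3% and 70.8% of all genes. CD70, the ligand of CD27, fell as CD27 did, by 0.93 at 3 h and 1.08 at 6 h from 37.0 CPM. CD86, a costimulatory ligand for T cells that CD83 protects, fell by 1.45 and 1.92, from 7.15 to 1.88 CPM, while CD83 rose. MARCHF1, the ligase that CD83 opposes, fell by 0.46 and 0.80. TRAF3, an adaptor that restrains CD40 and BAFF receptor signalling, rose by 1.78 and 1.69 from 1.67 CPM, and TRAF1, an adaptor induced by NF-kappaB, fell by 1.38 and 1.12. MAP3K14, the kinase NIK, was at 0.15 at 3 h (adjusted p = 0.019, lost in 8 of 18 other settings, with -0.05 for library size alone) and at -0.01 at 6 h (adjusted p = 0.844), and TNFRSF13C, the BAFF receptor, fell by 0.42 and 0.56. CD80 was under the filter, at 0.129 CPM or less.

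Of the guidance receptors and G protein regulators that act beside CXCR4 and CXCR5, 19 of 27 were tested, with 4 higher and 9 lower at 3 h and 3 higher and 11 lower at 6 h (medians -0.23 and -0.38, all genes -0.01 and 0.02). The 68.4% and 73.7% called were near the 66.3% and 70.8% of all genes, while 47.4% and 57.9% were lower beside 33.5% and 35.0%. With library size alone the split at 3 h was 2 and 14, where 21.9% of all genes were higher and 47.0% lower. CXCR3, CCR6, S1PR1, GPR183 and P2RY8 were under the filter, none above a mean of 0.0952 CPM. Reads without a unique alignment were set aside, so a count this low, that of P2RY8 included, need not mean that a gene was silent. S1PR2, which confines germinal centre B cells to the follicle, rose by 0.30 at 3 h, which was not called with library size alone (0.10), and fell by 0.71 against untreated cells at 6 h (43.4, 53.4 and 26.5 CPM). RGS1 and RGS13, which dampen chemokine receptor signalling, went from 9.30 to 4.45 CPM and from 268 to 141 CPM at 6 h (log2 changes -1.06 and -0.93). At 3 h RGS13 fell by 0.41, and RGS1 was at -0.23 (adjusted p = 0.0501). RGS2, of the same family, fell by 0.24 and 0.62, whereas RGS16 rose by 0.72 and 0.58. GRK2, a kinase that desensitises these receptors, fell by 0.23 and 0.44. GNA13, the G protein that acts below S1PR2, was at -0.05 at 3 h (adjusted p = 0.556; -0.15 with adjusted p = 0.00282 without untreated replicate 3) and fell by 0.25 at 6 h.

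Adhesion and migration partners, 20 tested of 22 listed, had 4 higher and 9 lower at 3 h and 5 higher and 11 lower at 6 h (medians -0.30 and -0.22, all genes -0.01 and 0.02). The share called, 65.0% at 3 h, was near the 66.3% of all genes, and was 80.0% beside 70.8% at 6 h. With library size alone the splits were 3 and 14 at 3 h and 1 and 13 at 6 h. All genes then had 21.9% higher and 47.0% lower at 3 h, and 23.1% and 47.4% at 6 h. The integrin chains ITGA4, ITGAL and ITGB1 fell by 0.58, 0.48 and 0.45 at 3 h and by 0.39, 0.26 and 0.51 at 6 h. SELPLG, a selectin ligand, fell by 0.73 and 0.75. Of the linkers that tie CD44 to actin, EZR (ezrin) rose by 0.42 at 3 h and 0.19 at 6 h and MSN (moesin) by 0.18 and 0.29. RDX (radixin), of the same family and named after its values were seen, rose by 0.63 at 3 h and was at -0.08 at 6 h (adjusted p = 0.623). With library size alone EZR was at -0.05 at 6 h, and MSN at -0.02 and 0.05, none of them called.

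Lists of light zone and dark zone genes without the 10 genes above were read beside CD83 and CXCR4. Of 12 tested light zone genes, 3 rose and 7 fell at 3 h, and 2 rose and 7 fell at 6 h (medians -0.49 and -0.76, all genes -0.01 and 0.02). That is 25% higher and 58.3% lower at 3 h beside 32.8% and 33.5% of all genes, and 16.7% and 58.3% at 6 h beside 35.7% and 35.0%. NFKBIA, the inhibitor of NF-kappaB, rose by 0.58 and 0.26 (0.03 at 6 h with library size alone, not called). EGR1, at a low 0.285, 0.683 and 0.239 CPM at the 3 times, rose by 1.25 at 3 h (SE 0.32). At 6 h it was at -0.24 (adjusted p = 0.603). BCL2A1 fell by 1.74 and 2.11 from 0.578 CPM. Of 15 tested dark zone genes, 7 rose and 4 fell at 3 h, and 7 rose and 5 fell at 6 h (medians 0.11 and 0.0, all genes -0.01 and 0.02). The shares called were 73.3% and 80.0%, beside 66.3% and 70.8% of all genes. With library size alone 3 rose and 6 fell at 3 h, and 3 rose and 8 fell at 6 h. Of all genes under that scaling, 21.9% were higher and 47.0% lower at 3 h, and 23.1% and 47.4% at 6 h. MME (CD10) rose by 0.75 at 6 h. Its 0.16 at 3 h (adjusted p = 0.0359) was lost in 8 of 18 other settings, among them those without untreated replicate 3 or 3 h replicate 6 or 7, and was -0.04 with library size alone. FOXO1, a transcription factor of the dark zone, rose by 0.35 at 3 h and 0.21 at 6 h, and was at 0.15 and -0.02 with library size alone, neither called.

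For each tested gene, the genes of at least 10 CPM whose log2 CPM correlated most with it over the 9 libraries were taken from 8840 others. These correlations describe 3 groups of 3 libraries, so values near 1 are common. MS4A1 was followed most closely by PUS7, POLR3G and TFRC (Pearson r 0.998 to 0.999), of which TFRC, the transferrin receptor, went from 156 to 808 CPM. The nearest to CD83 were DEGS1, TWNK and NETO2 (0.998), and to CD40 NAGLU, NECAB3 and LINC00938 (0.998 to 0.999). GRK6, a receptor kinase of the guidance list, was nearest to CD27 (0.995; 115, 84.4 and 84.6 CPM), ASAH1 to CD44 (0.994) and POC5 to CD38 (0.995). TSC22D3, a glucocorticoid-induced gene, was nearest to CXCR4 (0.996; 104, 91.7 and 36.5 CPM), and HIP1R to CXCR5 (0.995).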

How the data were processed

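The deposited table holds unnormalized counts, with Ensembl identifiers as rows and libraries as columns. Per the submitters' processing notes, GSNAP, HTSeq 0.6.0, limma 3.30.0 and build hg19 were used; annotation release, strand setting and counting mode are not given in the sources used here. The 5 HTSeq summary rows were set aside: 67.6% to 70.9% of reads lay in genes, 2.53% to 2.76% were ambiguous and 9.89% to 11.7% not uniquely aligned. Symbols were matched by identifier (39539 matched), and exon lengths, positions and overlaps came from GENCODE 29 (GRCh38).

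Counts were analysed with edgeR 4.0.16 in R 4.3.3: filterByExpr (minimum count 10, minimum total 15), TMM factors (means 1.11, 0.962 and 0.940 at 0 h, 3 h and 6 h) and a robust quasi-likelihood fit with a mean per group over 9 libraries (6 residual degrees of freedom). Tests were two-sided with Benjamini-Hochberg adjustment over all 15847 genes tested and a threshold of 0.05. The procedure was run on simulated counts in which few genes were changed. That run does not test the scaling in these data, where 66.3% of genes were called at 3 h. Calls and log2 changes against 0 h and between 3 h and 6 h were recomputed with DESeq2 1.42.0, with limma-voom (limma 3.58.1), under 3 other scalings and 2 other filters, with a fit on the pair of groups alone, against a fold of at least 1.2, and without each library. The contrast of the 2 steps was recomputed the same way, except on pairs of groups. For that contrast, and for the lists and their named genes (against 0 h), this was added after seeing the data. The ratios, correlations and F test were not recomputed, and the timing shares only under 2 scalings.

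The 10 genes and the lists were chosen with earlier results of these data known. Named genes were the 10, genes fixed by symbol from each list, and the 3 genes most correlated with each. A few of the genes fixed by symbol are not reported here. Pathway and marker genes not matched were PECAM1 and TRAC. Figures used matplotlib 3.10.9.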

Additional observations from a re-analysis of the deposited data

How the results depend on the processing

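Counts of called genes among the 8 stayed within 1.5 times the reported value in all 18 alternatives: 5 to 8 at 3 h, 8 at 6 h and 4 to 6 between 3 h and 6 h. Of 568 values recomputed for single genes among them, 533 kept their direction and side of the threshold, 21 were no longer called, 8 became called and 6 changed sign. The sign changes concern differences between 3 h and 6 h that were never called: CD27 was at -0.02 with library size alone, -0.03 without 3 h replicate 6 and -0.02 without 6 h replicate 9, and CD44 at 0.02, 0.07 and 0.02 without 3 h replicate 6, 6 h replicate 10 and 6 h replicate 11 (range over all libraries left out -0.15 to 0.07). For genes of the lists, 1040 of 1110 values kept direction and call. Sign changes were CD79B (-0.01 at 6 h) with upper-quartile factors, where MAP3K14 was at 0.0 at 3 h; with library size alone CD79B (-0.10 at 6 h), MAP3K14 (-0.05), MSN (-0.02) and MME (-0.04) at 3 h and EZR (-0.05) and FOXO1 (-0.02) at 6 h; and at 6 h MAP3K14 (0.0 with no filter, 0.01 without untreated replicate 2, 0.0 without 6 h replicate 10) and EGR1 (0.03 without 6 h replicate 11, lowest -0.75 without 6 h replicate 9). Against a minimum fold of 1.2, 7 of 15 dark zone genes were called at 3 h and 7 of 20 adhesion genes at 6 h. At that fold, 7261 of all 15847 tested genes were called at 3 h and 8245 at 6 h. Other changed calls of the 8 genes are given with the results; their cause was not tested. The summed CD24 counts were not run, since no row mapped to CD24. No paired analysis was possible because the groups share no replicate numbers. Among the 8 genes, CD44 and CXCR5 rest on the fewest reads and have the widest intervals.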
